A study of Mus musculus with 24 samples.

Results

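The succinate response was measured over all 24 mice of the study at once: 12 mice given 100 mM succinate in their drinking water for 7 days were compared with 12 mice given regular water. Each mouse gave 1 library of poly(A) RNA from the distal jejunum. The mice fell into 4 blocks of 6 (male WT, male Ptk6-/-, female WT and female Ptk6-/-), each with 3 control and 3 succinate-treated animals, and the treatment effect was estimated within blocks. Ptk6-/- mice carry a germline disruption of *Ptk6*, a cytoplasmic tyrosine kinase gene, in every cell, bred into C57BL/6, so the knockout is not restricted to the epithelium. According to the study's methods, all animals were age-matched young adults from different litters of the same colony. All 24 of the 24 libraries in the series entered the comparison, and of 56691 genes in the count table the 20275 with at least 10 counts in at least 6 libraries were tested. The question was which genes respond to succinate in common, and how evenly the response is spread over the 4 blocks.

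Succinate in the gut lumen is sensed by tuft cells, rare chemosensory cells of the epithelium, through the succinate receptor SUCNR1 and a taste-like cascade that ends in the channel TRPM5. Tuft cells then release IL-25 and lipid mediators, which act on group 2 innate lymphoid cells; their IL-13 acts back on epithelial stem cells, so that more tuft and goblet cells are made and a set of epithelial defence genes is switched on. This tuft cell circuit of type 2 immunity is best known from the small intestine, where worms and protists also engage it.

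Total counts lay between 8080321 and 52824743 per library (median 43017686.5). *Ptk6* held 7 to 61 counts in the Ptk6-/- libraries and 284 to 2405 in the WT libraries. The epithelial genes *Vil1* and *Epcam* held at least 89.1 and 107.8 FPKM in every library, and the stomach gene *Atp4a* at most 0.0687 FPKM. The jejunal gene *Fabp2* (median 3052 FPKM) and the ileal bile acid carrier *Fabp6* (median 1381 FPKM) were both abundant, while *Aqp8*, a gene of the colon, had a median of 0. Libraries are named by block, treatment and replicate number. In the library labelled male WT control 1, 18S ribosomal RNA (*Rn18s-rs5*) took 51.2% of counts. In male Ptk6-/- succinate 1, the shallowest library, it took 29.7%, and the median Spearman correlation with the other libraries was 0.885. The library labelled female WT succinate 2 held a summed 23970 CPM of 10 heart muscle genes, against at most 268 CPM in any other library, and a summed 72.3 CPM of 4 Y-linked genes, against at most 0.235 CPM in the other libraries from females and at least 34.9 CPM in those from males, so it went against its label. Results are given with and without these 3 libraries where they rest on them. P-values of the pooled effect rest on the spread between mice around a fit with a common succinate effect. Differences of that effect between blocks add to this spread. P-values of the tests of a difference between blocks, from a fit with 8 groups, rest on the spread between mice of a group.

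At the thresholds used, more genes were higher with succinate than lower, and how much more depended on the test. Among the 20275 genes tested, 83 were higher with succinate (0.409%) and 1 was lower (0.00493%) at an adjusted p under 0.05 and a fold change of at least 2, by edgeR's quasi-likelihood test with Benjamini-Hochberg adjustment. DESeq2 called 222 higher and 46 lower, and voom with sample weights 244 and 183. At an unadjusted p under 0.05 the split was nearly even, with 1811 genes higher and 1406 lower, and the median log2 fold change over all genes was −0.0025. Of the 83 genes, 74 are annotated as protein coding. They included genes of tuft cell sensing and identity, the gasdermin C family, epithelial genes that respond to IL-13, and genes of mast cells and eosinophils. Without the 3 libraries that stand apart, 69 genes were called higher, 59 of them among the 83, and 1 lower.

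The number called rested on single mice and on whole blocks. It was 165 without female WT succinate 3 and 155 without male WT succinate 1, the mice of these blocks with the fewest raised genes. It was 36 without female WT control 3, 36 without female Ptk6-/- control 1, 39 without female Ptk6-/- control 2, 40 without female WT control 1, 43 without male WT succinate 3 and 53 without female WT succinate 1. Without the male Ptk6-/- block 147 genes were higher, 78 of them among the 83, and 45 were lower. Without the male WT block 8 were higher and 0 lower. Without either female block edgeR called 0 genes in either direction: lacking female WT mice, 1687 genes were higher and 1291 lower at an unadjusted p under 0.05 (smallest adjusted p 0.0686), and lacking female Ptk6-/- mice, 1359 and 541 (smallest adjusted p 0.0837). DESeq2 and voom were not run without whole blocks. In each of these fits every one of the 83 genes that was tested kept a fold change above 0. The 83 genes were chosen on the pooled effect in largely the same mice, so the kept direction is a description.

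The strongest evidence was for *AA467197*, *Pla2g4c* and *U90926*. *Pla2g4c* (chromosome 7, 13058580 to 13094597, plus strand; positions here are those of the deposited table, on GRCm39), a cytosolic phospholipase A2 gene, held 4.32, 1.32 and 3.21 CPM (counts relative to the scaled library total) in the male WT controls and 104, 118 and 768 CPM in the male WT mice on succinate. In the female WT mice it went from 9.92, 4.44 and 5.18 CPM to 1753, 1127 and 516 CPM, and in the female Ptk6-/- mice from 18.5, 14.1 and 13.1 CPM to 1648, 2447 and 2852 CPM. In each of these 3 blocks the lowest succinate-treated mouse stood far above the highest control. In the male Ptk6-/- mice the controls had 5.14, 13.3 and 2.98 CPM and the treated mice 20.6, 3.13 and 43.6 CPM, and the values overlapped. The pooled log2 fold change of *Pla2g4c* was 6.24 ± 0.83 (SE, taken here and throughout from the fold change and its F statistic; edgeR adjusted p = 0.00100).

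*AA467197* (chromosome 2, 122478906 to 122483111, plus strand), the mouse homolog of the human gene NMES1, was separated in every block. Its controls ranged over 24.7 to 74.9 CPM (median 38.7) and its succinate-treated mice over 60.0 to 1132 CPM (median 274), and 9 of the 12 treated mice lay above all 12 controls (log2 fold change 2.71 ± 0.36, edgeR adjusted p = 0.00100). Even in male Ptk6-/- mice, which had 24.7, 29.0 and 33.8 CPM as controls and 64.3, 68.8 and 91.3 CPM on succinate, the 3 treated animals were the 3 highest. *U90926*, annotated as a long noncoding RNA, was nearly silent in controls, at 0 to 0.791 CPM (median 0.252), and reached 0.427 to 36.6 CPM (median 7.31) with succinate, with 11 of 12 treated mice above all controls (log2 fold change 5.41 ± 0.73, edgeR adjusted p = 0.00100).

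**Figure D1:**
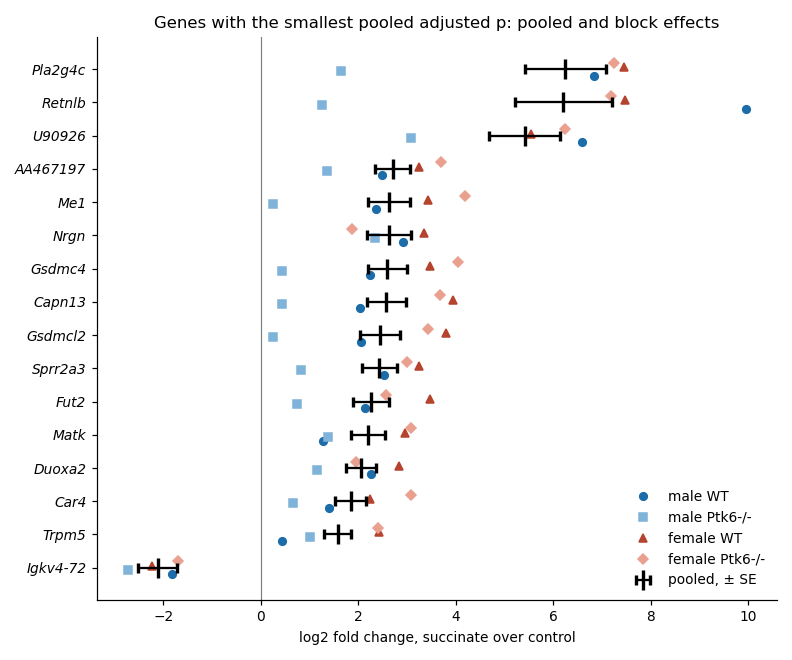
Log2 fold change of succinate over control (x axis) for 15 genes called higher and the 1 gene called lower (y axis). The 15 had the smallest adjusted p among genes called higher without a Gm or Rik symbol. Black bars are the pooled estimate ± SE and coloured symbols the estimates of the 4 blocks of 6 mice. The male Ptk6-/- symbol (light blue square) lies lowest for most of the genes, and the male WT point of Retnlb rests on controls at 0 counts, so its position is not a measured fold.

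How evenly the response was shared was first described gene by gene. The 83 genes were chosen on the pooled effect, which holds the 4 block effects, so these counts are a description. The fitted effect was above 0 in all 4 blocks for 69 of the 83 genes, where 10.8% of all genes tested had that pattern. For the other 14 it was above 0 in 3 blocks, and the block below 0 was male Ptk6-/- each time. The 3 treated mice lay above the 3 controls in all 4 blocks for 9 of the 83 genes, and for 9 of all genes tested (0.0444%): *AA467197*, *U90926*, *Sprr2a3*, *Duoxa2*, *Car4*, *Trpm5*, *Fer1l4*, *Tspan6* and *Stn1*. A further 49 were separated in 3 blocks, 17 in 2 and 8 in 1. Over all genes tested, 103 (0.508%) were separated upward in the male WT, female WT and female Ptk6-/- blocks together.

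The fitted size of the response differed between blocks, again as a description of genes chosen on the pooled effect. In the test of a difference over the 4 blocks edgeR called 0 genes, DESeq2 201 and voom 440. Over the 83 genes the median log2 fold change was 2.96 in female Ptk6-/- mice, 2.74 in female WT mice, 1.67 in male WT mice and 0.50 in male Ptk6-/- mice, beside medians of all genes tested of −0.02, 0.02, 0.01 and −0.11. Genes with at most 3 counts in every library of an arm were then set to a floor of 3 counts per library, over summed library sizes. With this floor the male medians were 1.55 and 0.51, and the female ones did not move. At least a 2-fold rise was fitted for 83, 81, 64 and 23 of the genes in the same order of blocks. The male Ptk6-/- effect was the smallest of the 4 for 64 genes, and the female Ptk6-/- effect was the largest for 53. The 3 treated mice lay above the 3 controls for 77 genes in female Ptk6-/-, 68 in female WT, 57 in male WT and 23 in male Ptk6-/- mice, where 10.8%, 6.28%, 4.68% and 10.8% of all genes tested did. Without the 3 libraries that stand apart, the medians over the 82 of these genes still tested were 2.95, 2.59, 1.59 and 0.45.

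**Figure D2:**
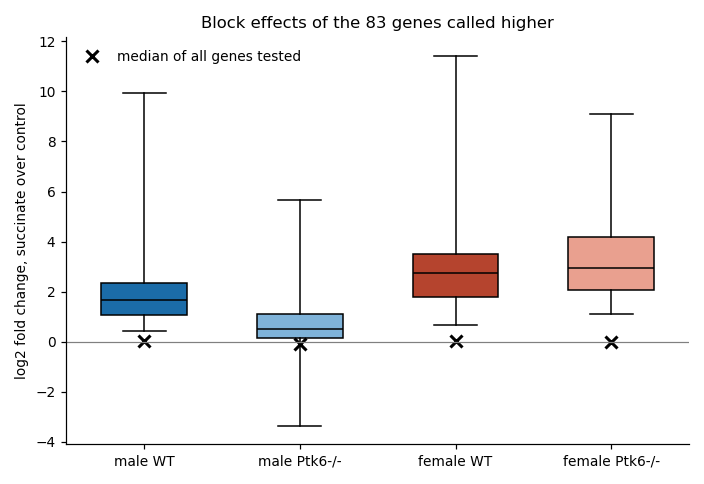
Box plots of the log2 fold change of succinate over control (y axis) for the 83 genes called higher, by block (x axis); boxes hold the middle 50% of the genes, the line is the median, whiskers reach the lowest and highest gene, and crosses mark the median of all genes tested. The box of the male Ptk6-/- block sits nearest to 0, with a median of 0.50, and the highest male WT value is Retnlb, whose controls were at 0 counts.

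Single mice differed within blocks too. Each treated mouse was set against the 3 controls of its own block. All 83 genes lay above those controls in the library labelled female WT succinate 2, which stands apart, and 82, 80 and 78 did in the female Ptk6-/- mice 2, 3 and 1. Female WT succinate 3 had 68 genes above its controls, with a median log2 ratio of 0.92 over the 83 genes, where the other female WT mice had 2.82 and 2.40. Among male WT mice, replicate 1 had 59 genes above the controls (median log2 ratio 0.54) and replicates 2 and 3 had 81 each (1.02 and 1.77). The male Ptk6-/- mice had 43, 34 and 69 genes above their controls in replicates 1, 2 and 3 (median log2 ratios 0.37, 0.14 and 0.59). Over all genes tested, the share above the 3 controls was 23.0% to 34.8% per mouse. The weakest female WT mouse (68) and the strongest male Ptk6-/- mouse (69) thus had nearly the same number of raised genes.

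**Figure D3:**
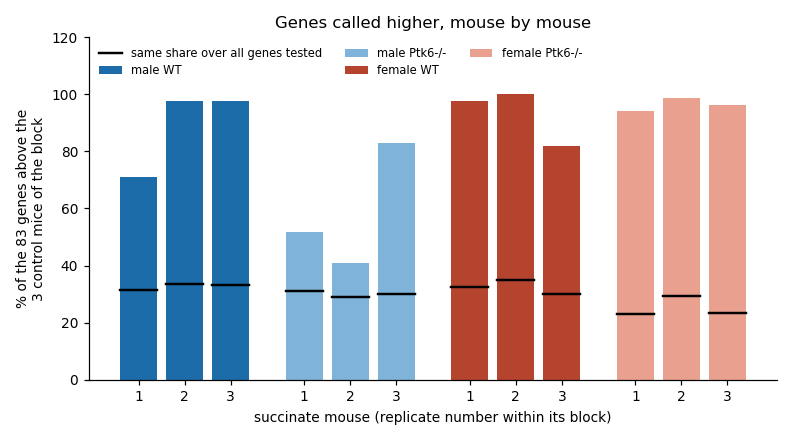
Share of the 83 genes called higher that lay above the 3 control mice of the same block (y axis, percent), for each succinate-treated mouse (x axis, replicate number within its block, coloured by block); black lines give the same share over all 20275 genes tested. Shares ran from 41.0% in male Ptk6-/- mouse 2 to 100% in the library labelled female WT 2.

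Several genes of tuft cell sensing rose. Of 16 tested genes of the chemosensory cascade, 6 rose and 0 fell at the thresholds, beside 0.409% of all genes tested called higher, with a list median log2 fold change of 1.37. *Sucnr1*, the succinate receptor gene, was low in every mouse. It held 0 to 0.968 CPM (median 0.367) in controls and 0 to 5.02 CPM (median 1.55) with succinate, and 8 of 12 treated mice lay above all controls (log2 fold change 1.83 ± 0.40, edgeR adjusted p = 0.0370). Its block effects were 1.85 in male WT, 0.36 in male Ptk6-/-, 2.30 in female WT and 2.53 in female Ptk6-/- mice, and its call was kept in 10 of the 24 fits that left out a library. *Trpm5*, the cation channel at the end of the cascade, held 7.60, 8.92 and 14.7 CPM in male Ptk6-/- controls and 26.9, 18.9 and 17.5 CPM in the treated males of that genotype. In female Ptk6-/- mice it went from 6.95, 12.1 and 11.7 CPM to 30.6, 53.2 and 78.6 CPM, and in female WT mice from 13.5, 9.37 and 8.71 CPM to 76.2, 72.0 and 22.5 CPM. All 4 blocks were separated for *Trpm5*, and the pooled values were a log2 fold change 1.58 ± 0.27, edgeR adjusted p = 0.00711. In bulk tissue, more cells of a type and more RNA per cell cannot be told apart.

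*Il17rb*, a subunit of the IL-25 receptor, rose (log2 fold change 1.32 ± 0.23, edgeR adjusted p = 0.00711), with 11 of 12 treated mice above all controls and block effects of 0.75 in male WT, 0.78 in male Ptk6-/-, 1.58 in female WT and 2.14 in female Ptk6-/- mice. *Ffar3*, a receptor for short-chain fatty acids, had a value of 2.05 ± 0.47 (edgeR adjusted p = 0.0466), *Irag2*, coding a regulator of calcium release, with 1.57 ± 0.33 (edgeR adjusted p = 0.0263) and the phosphoinositide 3-kinase subunit gene *Pik3r5* with 1.28 ± 0.29 (edgeR adjusted p = 0.0428). The calls of *Ffar3*, *Irag2* and *Pik3r5* were kept in 7, 16 and 10 of the 24 fits without a library. The taste G protein gene *Gnat3*, at 0 to 1.59 CPM (median 0.335) in treated mice, had a log2 fold change of 1.42 ± 0.52 and did not pass (edgeR adjusted p = 0.210). The taste receptor subunit gene *Tas1r3* had −0.33 ± 0.24 (edgeR adjusted p = 0.508). *Il25* did not pass the filter, with at most 61 counts in any library.

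**Figure D4:**
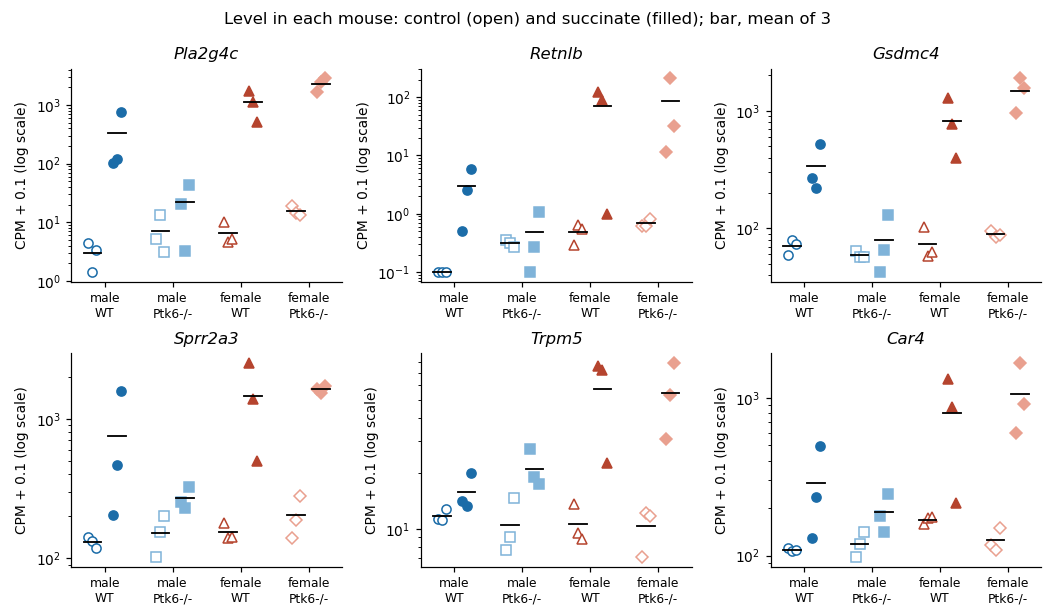
Level of 6 genes in each mouse (y axis, CPM + 0.1 on a log scale) by block (x axis), with controls as open and succinate-treated mice as filled symbols and a bar at the mean of 3 mice. For Trpm5, Sprr2a3 and Car4 the filled symbols lie above the open ones in every block, and for Pla2g4c, Gsdmc4 and Retnlb they overlap in male Ptk6-/- mice.

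Of the 30 genes of tuft cell identity and structure, 8 rose and 0 fell, 23 had an unadjusted p under 0.05 in the upward direction, beside 1811 of all 20275 genes tested, and the median log2 fold change was 1.33. Among them were *Matk*, *Gfi1b*, *Alox5ap*, *Sh2d6*, *Siglecf* and *Avil*. *Matk*, a tyrosine kinase gene of the Csk family, held 3.33 to 8.73 CPM (median 5.03) in controls and 4.90 to 83.5 CPM (median 19.1) in treated mice (log2 fold change 2.19 ± 0.35, edgeR adjusted p = 0.00476). *Gfi1b*, a transcriptional repressor gene marking tuft cells, had block effects of 1.47 in male WT, 0.97 in male Ptk6-/-, 2.70 in female WT and 2.93 in female Ptk6-/- mice (log2 fold change 2.09 ± 0.43, edgeR adjusted p = 0.0252). *Avil*, coding the actin-binding protein advillin, had 1.69 ± 0.34 over all mice (edgeR adjusted p = 0.0224). *Pou2f3*, the transcription factor gene that tuft cells require, had 1.75 ± 0.43 (edgeR adjusted p = 0.0678), and the common marker *Dclk1* had 1.29 ± 0.32 (edgeR adjusted p = 0.0720), so neither passed. *Dclk1* was at 5.49, 4.96 and 4.47 CPM in male Ptk6-/- controls and 2.29, 3.13 and 5.86 CPM in treated ones, and at 3.03, 5.43 and 3.19 CPM and 14.8, 20.6 and 39.9 CPM in female Ptk6-/- mice. The list medians were 0.80 in male WT, −0.01 in male Ptk6-/-, 1.63 in female WT and 2.37 in female Ptk6-/- mice, and that of male Ptk6-/- mice was 0.30 without male Ptk6-/- succinate 1. The call of *Siglecf* was kept in 10 of the 24 fits without a library.

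Among 14 genes of eicosanoid synthesis, the lipid mediators tuft cells make, *Pla2g4c* and *Alox5ap* rose and 0 fell. Of all genes tested, 0.409% were called higher. *Alox5ap*, coding the 5-lipoxygenase activating protein, had 1.68 to 5.50 CPM (median 3.49) in controls and 1.40 to 54.5 CPM (median 10.4) with succinate (log2 fold change 1.96 ± 0.40, edgeR adjusted p = 0.0224). The leukotriene enzyme genes *Alox5* (1.74 ± 0.45, edgeR adjusted p = 0.0865) and *Ltc4s* (1.78 ± 0.46, edgeR adjusted p = 0.0845) did not pass. The cyclooxygenase genes *Ptgs1* (0.11 ± 0.12) and *Ptgs2* (0.31 ± 0.37) had adjusted p of 0.672 and 0.711 (edgeR). *Ptgds*, a prostaglandin D synthase gene outside the list, was called (log2 fold change 7.07 ± 1.58, edgeR adjusted p = 0.0396), but its treated mice had a median of 0.175 CPM, and 4 of 12 lay above all controls. The highest value was 193.8 CPM in the library labelled female WT succinate 2, without which the log2 fold change was 3.60 and *Ptgds* was not called. In the males it held 3.86, 0 and 3.76 CPM in treated WT and 3.43, 0.142 and 0.282 CPM in treated Ptk6-/- mice. All their controls were at or under 3 counts, so no fold is given. The 3.43 CPM was in male Ptk6-/- succinate 1, which stands apart.

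The gasdermin C genes, of a family whose products form pores in cell membranes, rose as a run of neighbours. All 6 tested genes between positions 63647817 and 63797304 of chromosome 15 in the deposited table were called higher: *Gsdmc*, *Gsdmc2*, *Gsdmc3*, *Gsdmcl2*, *Gsdmc4* and *Gsdmcl-ps*. *Gsdmc4* held 59.4, 79.9 and 74.1 CPM in male WT controls and 269.6, 220.2 and 523 CPM on succinate. In female WT mice the values were 102, 58.0 and 62.2 CPM and 1293, 766 and 393 CPM, and in female Ptk6-/- mice 94.8, 83.8 and 87.6 CPM and 950.0, 1890.0 and 1562 CPM. These 3 blocks were separated, whereas male Ptk6-/- mice had 64.2, 56.8 and 56.4 CPM as controls and 42.3, 65.6 and 130.2 CPM on succinate and overlapped. The pooled log2 fold changes were 2.60 ± 0.39 for *Gsdmc4* (edgeR adjusted p = 0.00328), 2.73 ± 0.48 for *Gsdmc2* (edgeR adjusted p = 0.00711) and 2.51 ± 0.44 for *Gsdmc3* (edgeR adjusted p = 0.00779). These genes are close relatives, and reads common to several may have been assigned to any of them. Outside the cluster, *Gsdmd* had −0.20 ± 0.15 (edgeR adjusted p = 0.527) and *Gsdme* −1.16 ± 0.34 (edgeR adjusted p = 0.127). Thus 4 of 8 tested gasdermins of the list rose, all of the C type, beside 0.409% of all genes tested called higher.

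Epithelial genes known to respond to IL-13 formed the next group, in which 5 of 15 tested genes rose and 0 fell, beside 0.409% of all genes tested called higher (median log2 fold change 1.53). At an unadjusted p under 0.05, 11 were higher and 2 lower, beside 1811 and 1406 of all 20275 genes tested. The block medians were 0.81 in male WT, 0.23 in male Ptk6-/-, 1.78 in female WT and 1.69 in female Ptk6-/- mice. *Retnlb*, coding the goblet cell protein RELM-beta, had 0, 0 and 0 counts in male WT controls and 23, 121 and 239 counts in treated male WT mice. It had 0.192, 0.536 and 0.455 CPM and 121, 89.4 and 0.892 CPM in female WT mice, and 0.529, 0.511 and 0.712 CPM and 11.5, 210.5 and 32.4 CPM in female Ptk6-/- mice. The female WT values are far apart, with mouse 3 near the controls. In male Ptk6-/- mice controls had 0.259, 0.218 and 0.172 CPM and treated mice 0, 0.171 and 0.977 CPM, without separation (pooled log2 fold change 6.20 ± 0.99, edgeR adjusted p = 0.00476). *Mptx1*, a pentraxin gene, rose by 3.81 ± 0.70 on the log2 scale (edgeR adjusted p = 0.00916), while its relative *Mptx2* had 0.89 ± 0.33 (edgeR adjusted p = 0.213). The goblet cell gene *Clca1* had 0.55 ± 0.19 (edgeR adjusted p = 0.197). The angiogenin gene *Ang4* had 1.76 ± 0.42 (edgeR adjusted p = 0.0566).

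The small proline-rich genes *Sprr2a1*, *Sprr2a2* and *Sprr2a3*, coding proteins known from the envelope of keratinized cells, rose, and their fitted effects were above 0 in all 4 blocks. *Sprr2a3* had 102, 155 and 199.9 CPM in male Ptk6-/- controls and 255, 229 and 325 CPM in the treated mice, and 139, 189 and 282 CPM and 1648, 1544 and 1714 CPM in female Ptk6-/- mice. Every block was separated (log2 fold change 2.44 ± 0.35, edgeR adjusted p = 0.00200). *Sprr2a1* and *Sprr2a2* had the same log2 fold change to 2 decimals, 1.53 ± 0.27 (edgeR adjusted p = 0.00711), and similar levels of 2974 to 17800.0 CPM (median 9261) and 2723 to 16180.0 CPM (median 8447) in treated mice, so their counts may be shared reads. Their RefSeq promoters are the same base for base over 300 bases. That of *Sprr2a3* holds a run of 272 bases in common with them. *Sprr2b*, in the same cluster, had 1.64 ± 0.59 (edgeR adjusted p = 0.203).

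Promoters were read from RefSeq (build GRCm38.p6, not the build of the deposited positions) as the 250 bases before and 50 after a gene's start; 58 of the 83 genes matched by symbol, with 68 promoters. They were searched on both strands for TTCNNNNGAA, the spaced palindrome bound by STAT6, the factor downstream of the IL-13 receptor, and for ATGCAAAT, the octamer of POU factors such as POU2F3. The first was in 12 of the 68 promoters (17.6%), beside 5.77% of the 16620 promoters of genes tested and 6.95% of the 32851 in the table. The second was in 4 (5.88%), beside 1.41% and 1.74%. The shared sequence of the *Sprr2a* promoters puts 3 of the 12 matches in 1 family. A match is a string of letters and not a bound site. The 4 sequences are given 5′ to 3′ with matches in capitals, because they belong to the receptor of succinate, a tuft cell regulator and the *Sprr2a* family, and *Sucnr1* holds both motifs (the palindrome is the first run of capitals, the octamer the second).
Sucnr1 promoter, chr3:60081619-60081918, plus strand: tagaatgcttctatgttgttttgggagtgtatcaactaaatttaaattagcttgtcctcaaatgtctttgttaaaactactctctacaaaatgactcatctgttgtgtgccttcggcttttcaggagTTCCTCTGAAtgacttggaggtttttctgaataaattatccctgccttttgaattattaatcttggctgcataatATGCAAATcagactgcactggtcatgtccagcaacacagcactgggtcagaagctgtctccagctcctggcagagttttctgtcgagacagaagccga
Gfi1b promoter, chr2:28621933-28622232, minus strand: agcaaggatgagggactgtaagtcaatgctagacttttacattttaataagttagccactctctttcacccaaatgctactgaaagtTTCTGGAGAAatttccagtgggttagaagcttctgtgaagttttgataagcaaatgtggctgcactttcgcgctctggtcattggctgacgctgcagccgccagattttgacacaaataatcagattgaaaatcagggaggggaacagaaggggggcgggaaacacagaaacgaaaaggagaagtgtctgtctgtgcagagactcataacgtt
Sprr2a1 promoter, chr3:92215585-92215884, plus strand: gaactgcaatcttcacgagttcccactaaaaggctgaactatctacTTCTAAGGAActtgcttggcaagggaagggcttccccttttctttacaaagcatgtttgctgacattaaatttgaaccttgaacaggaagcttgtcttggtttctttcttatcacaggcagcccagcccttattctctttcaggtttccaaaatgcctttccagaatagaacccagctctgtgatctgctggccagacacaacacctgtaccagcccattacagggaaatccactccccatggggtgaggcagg
Sprr2a3 promoter, chr3:92285054-92285353, plus strand: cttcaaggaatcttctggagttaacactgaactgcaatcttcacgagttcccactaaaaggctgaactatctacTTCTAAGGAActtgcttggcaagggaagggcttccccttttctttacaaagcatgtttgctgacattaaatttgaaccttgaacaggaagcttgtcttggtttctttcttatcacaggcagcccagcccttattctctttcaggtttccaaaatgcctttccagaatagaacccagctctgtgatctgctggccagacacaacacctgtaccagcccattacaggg
In *Sucnr1* the palindrome starts 123 bases and the octamer 48 bases before the start. In *Gfi1b* the palindrome starts 163 bases before it, in *Sprr2a1* 204 and in *Sprr2a3* 176.

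Genes of mast cells and eosinophils, immune cells drawn by type 2 cytokines, had their largest fitted effects in females. Of 15 tested, *Cma2* and *Siglecf* were called higher, 10 were higher at an unadjusted p under 0.05 (1811 of all 20275 genes tested) and all 15 were above 0 (median log2 fold change 1.27; block medians 0.29 in male WT, 0.00 in male Ptk6-/-, 2.37 in female WT and 3.52 in female Ptk6-/- mice). *Siglecf* also marks tuft cells in the mouse gut. *Mcpt1*, a mucosal mast cell protease gene, held 4.93, 1.58 and 8.86 CPM in female Ptk6-/- controls and 33.3, 641 and 46.8 CPM in treated mice. In female WT mice it held 5.50, 6.86 and 8.06 CPM and 109, 82.7 and 5.28 CPM, and treated mouse 3 stayed among the controls. The 3 treated mice of either female block thus differed widely, and the pooled value of *Mcpt1*, 2.75 ± 0.65, did not pass (edgeR adjusted p = 0.0566). *Cma2*, coding a chymase, had 0 to 0.826 CPM (median 0.0297) in controls and 0 to 32.7 CPM (median 0.331) in treated mice (log2 fold change 4.81 ± 0.94, edgeR adjusted p = 0.0173). The summed level of the list was 29.2 to 52.5 CPM per control mouse, and 28.9 to 51.9 CPM in treated males, 49.9 to 232 CPM in treated female WT and 130.3 to 1000 CPM in treated female Ptk6-/- mice. The share of these cells in the response was not tested. Of the cytokines, *Il13* was at 0 in most controls, its highest value was 3.40 CPM in female Ptk6-/- succinate 2, and it did not pass (edgeR adjusted p = 0.166). *Il4* had 0.71 ± 0.46 (edgeR adjusted p = 0.461), and *Il5* did not reach the filter.

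*Duoxa2*, *Duoxa1* and *Gpx2* were among the 83, put together here from the calls and not from a list. *Duoxa2*, the maturation factor of the oxidase DUOX2, had 105, 113 and 199 CPM in male Ptk6-/- controls and 252, 401 and 276 CPM in the treated mice, and was separated in all 4 blocks (log2 fold change 2.05 ± 0.31, edgeR adjusted p = 0.00328). Its neighbour *Duoxa1*, which overlaps it on the other strand, rose with 2.33 ± 0.44 (edgeR adjusted p = 0.0128). *Duox2* itself, looked up after its partners' values were seen, had 1.11 ± 0.29 (edgeR adjusted p = 0.0925). *Gpx2*, the gut glutathione peroxidase, held 290.3 to 1667 CPM (median 476) in controls and 489.9 to 3488 CPM (median 1358) with succinate (log2 fold change 1.40 ± 0.29, edgeR adjusted p = 0.0267), and its call was kept in 16 of the 24 fits without a library.

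Single enzymes and carriers were also among the 83, named from the calls and not from a list. *Car4*, coding a membrane carbonic anhydrase, held 111, 107 and 109 CPM and 129, 235 and 497 CPM in male WT mice, and 117, 109 and 149 CPM and 601, 1663 and 914 CPM in female Ptk6-/- mice, and all 4 blocks were separated (log2 fold change 1.85 ± 0.32, edgeR adjusted p = 0.00711). *Me1*, the cytosolic malic enzyme, had 18.8, 13.2 and 29.5 CPM in female WT controls and 269.9, 201 and 195 CPM in treated mice, with an effect of 0.26 in male Ptk6-/- mice (log2 fold change 2.63 ± 0.44, edgeR adjusted p = 0.00665). The nucleoside carrier *Slc28a1* (2.67 ± 0.47, edgeR adjusted p = 0.00779), the ketone body enzyme *Oxct1* (1.03 ± 0.21, edgeR adjusted p = 0.0224), the acetyl-CoA synthetase *Acss1* (1.09 ± 0.20, edgeR adjusted p = 0.00916) and the hydroxylase *Egln3* (1.48 ± 0.29, edgeR adjusted p = 0.0201) also rose, and the call of *Oxct1* was kept in 16 of the 24 fits without a library. Of 20 tested genes that carry or convert succinate, 0 were called. At an unadjusted p under 0.05, 4 were higher and 1 lower, beside 1811 and 1406 of all 20275 genes tested. *Slc13a2*, the dicarboxylate carrier of the brush border, held 194 to 341 CPM (median 218) in controls and 3.15 to 247 CPM (median 107) with succinate, and 10 of 12 treated mice lay below all controls, though it did not pass (−1.34 ± 0.47, edgeR adjusted p = 0.197). The 2 others were male Ptk6-/- mice. The succinate dehydrogenase subunits *Sdha* (0.09 ± 0.13, edgeR adjusted p = 0.763) and *Sdhb* (0.30 ± 0.21, edgeR adjusted p = 0.502) had values near 0.

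Among 26 goblet cell genes 8 were higher and 3 lower at an unadjusted p under 0.05, beside 1811 and 1406 of all 20275 genes tested. At the thresholds 1 rose, *Spink4*, with 184 to 929 CPM (median 319) in controls and 204 to 6211 CPM (median 985) in treated mice (log2 fold change 2.01 ± 0.45, edgeR adjusted p = 0.0430), and the list median was 0.06. Its call was kept in 7 of the 24 fits without a library. *Fut2*, the fucosyltransferase that decorates mucins, rose with 2.26 ± 0.38 (edgeR adjusted p = 0.00665), 1 of 21 genes of mucin glycosylation. *Reg4*, called among 20 Paneth cell genes other than defensins, had 3.13 ± 0.70 (edgeR adjusted p = 0.0386) and kept its call in 10 of these fits. Of those 20 genes 13 were above 0, with 7 higher and 4 lower at an unadjusted p under 0.05 and a median of 0.36, which was 0.14 without male Ptk6-/- succinate 1. *Reg3g* had −2.07 ± 0.73 (edgeR adjusted p = 0.201) and *Lyz2* −0.56 ± 0.17 (edgeR adjusted p = 0.142). Of 27 alpha-defensin genes 0 were called, with 8 higher and 0 lower at an unadjusted p under 0.05. Their median was 0.14 and, without male Ptk6-/- succinate 1, −0.13. The male Ptk6-/- median went from 1.17 to 0.11 without that library. The female WT median was −0.88, and −0.56 without the 3 libraries that stand apart. The pseudogene *Defa-ps6*, not in that list, was among the 83 (log2 fold change 2.45 ± 0.49, edgeR adjusted p = 0.0203). Other genes with a small p were *Capn13*, a calpain gene (log2 fold change 2.58 ± 0.40, edgeR adjusted p = 0.00449), *Nrgn*, coding a calmodulin-binding protein (log2 fold change 2.63 ± 0.44, edgeR adjusted p = 0.00711), and the gasdermin-like transcript *Gsdmcl2* (2.45 ± 0.41, edgeR adjusted p = 0.00711). *Pnliprp1*, a lipase-related gene also made by the pancreas, had 3.46 ± 0.79 (edgeR adjusted p = 0.0449), a call kept in 7 of the 24 fits without a library. Of 14 pancreas genes 4 were tested and 0 called, and *Prss2*, *Cpa1* and *Ctrb1* had at most 3, 4 and 15 counts in any library. The summed level of the 4 was 31.9 to 208 CPM in controls, 39.8 to 204 CPM in treated males, 2045, 983 and 87.9 CPM in treated female WT mice and 247, 1574 and 405 CPM in treated female Ptk6-/- mice. Nearly all of it was the colipase gene *Clps*, also in the Paneth cell list, with 2033, 976 and 84.0 CPM and 242, 1565 and 401 CPM in the treated females and a pooled effect of 2.07 ± 0.53 (edgeR adjusted p = 0.0737), and the part of pancreas tissue in the value of *Pnliprp1* was not tested. *Actg2*, a smooth muscle actin gene, rose with 1.13 ± 0.25 (edgeR adjusted p = 0.0428; call kept in 9 of the 24 fits), 1 of 12 smooth muscle genes, of which 10 were above 0. The summed level of this list was 2738 to 6585 CPM in control and 2854 to 11000 CPM in treated mice, and its part in the value of *Actg2* was not tested.

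The other genes separated in all 4 blocks were *Fer1l4*, *Tspan6* and *Stn1*. *Fer1l4*, annotated as a relative of the ferlin family, held 0, 0.329 and 0.459 CPM in male WT controls and 1.04, 1.58 and 5.62 CPM in treated mice, and 0.674, 0.533 and 2.25 CPM and 4.20, 7.86 and 8.50 CPM in female Ptk6-/- mice (log2 fold change 2.55 ± 0.45, edgeR adjusted p = 0.00711). *Tspan6*, coding a tetraspanin of the cell membrane, held 0.865 to 4.53 CPM (median 2.65) in controls and 2.85 to 30.7 CPM (median 6.95) in treated mice (log2 fold change 1.71 ± 0.31, edgeR adjusted p = 0.00916). *Stn1*, coding a protein that protects telomere ends, had block effects of 0.64 in male WT, 0.42 in male Ptk6-/-, 1.65 in female WT and 1.72 in female Ptk6-/- mice (log2 fold change 1.12 ± 0.22, edgeR adjusted p = 0.0203). All 3 had their largest effect in a female block and their smallest in male Ptk6-/- mice.

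Further genes called were of mixed roles. *Cd55*, which shields cells from complement, had 36.0, 44.2 and 36.2 CPM and 211, 310.0 and 336 CPM in female Ptk6-/- mice, against 39.1, 53.0 and 51.8 CPM and 20.9, 47.2 and 69.1 CPM in male Ptk6-/- mice (log2 fold change 1.75 ± 0.32, edgeR adjusted p = 0.00916). The endothelin gene *Edn1* was low in all mice, at 0.767 to 3.16 CPM (median 1.95) in controls and 0.857 to 12.3 CPM (median 5.80) with succinate (log2 fold change 1.40 ± 0.28, edgeR adjusted p = 0.0201). *Tnfsf13b*, coding the B cell survival factor BAFF, had 7.43 to 14.6 CPM (median 11.1) in controls and 10.9 to 71.0 CPM (median 20.5) with succinate (log2 fold change 1.17 ± 0.24, edgeR adjusted p = 0.0224). Most of the treated mice lay above all controls for each of these genes, 10 of 12 for *Cd55*, 9 for *Edn1* and 10 for *Tnfsf13b*. *Ckb*, the brain type creatine kinase, had 82.4 to 272 CPM (median 125) and 93.0 to 1096 CPM (median 294) (log2 fold change 1.33 ± 0.29, edgeR adjusted p = 0.0335). *Pmm1*, a phosphomannomutase gene, had block effects of 0.92 in male WT, 0.94 in male Ptk6-/-, 3.30 in female WT and 3.81 in female Ptk6-/- mice (log2 fold change 2.26 ± 0.48, edgeR adjusted p = 0.0295). *Aqp7*, the glycerol channel, had block effects of 2.19 in male WT, −0.07 in male Ptk6-/-, 2.02 in female WT and 1.96 in female Ptk6-/- mice (log2 fold change 1.56 ± 0.33, edgeR adjusted p = 0.0263). *S100g*, coding the vitamin D dependent calcium-binding protein of the gut, had effects of 1.74 in male WT, 1.79 in male Ptk6-/-, 2.71 in female WT and 3.75 in female Ptk6-/- mice (log2 fold change 2.55 ± 0.52, edgeR adjusted p = 0.0230). The calls of *Ckb*, *Pmm1* and *Aqp7* were kept in 9, 16 and 14 of the 24 fits without a library.

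Several called genes were near the limit of detection. *Cabp5*, a calcium-binding protein gene, had 0 counts in all 12 controls and up to 59 counts in treated mice, of which 8 were above 3 counts. *Krt27*, a keratin gene of the hair follicle, held 0 to 0.0798 CPM (median 0) in controls and 0 to 1.44 CPM (median 0.199) with succinate. *Prss35*, a protease-like gene, held 0 to 0.152 CPM (median 0) and 0 to 5.03 CPM (median 0.906). For *Prss35* and *Krt27*, blocks with controls at or under 3 counts give bounds against a floor of 3 counts per library. For *Prss35* the bound was at least 4.0-fold higher in male Ptk6-/- mice. Its male WT controls were also at or under 3 counts, and no fold is given there. For *Krt27* the bounds were at least 1.85-fold higher in male Ptk6-/-, 8.6-fold in female WT and 11-fold in female Ptk6-/- mice. The call of *Krt27* was kept in 15 of the 24 fits without a library. Such genes show a gain from near 0, and the size of their fitted effects depends on the prior count.

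On the lower side, *Igkv4-72*, an immunoglobulin light chain segment on chromosome 6, was the single gene called. It held 3.02 to 138 CPM (median 23.6) in controls and 1.40 to 19.6 CPM (median 5.44) with succinate (log2 fold change −2.11 ± 0.40, edgeR adjusted p = 0.0128). The 4 block effects were −1.81 in male WT, −2.72 in male Ptk6-/-, −2.23 in female WT and −1.71 in female Ptk6-/- mice, all below 0. The control and treated ranges overlapped, and female Ptk6-/- control 3 was the lowest control, at 3.02 CPM. Of 31 absorptive enterocyte genes 0 were called. At an unadjusted p under 0.05, 13 were lower and 2 higher, beside 1406 and 1811 of all 20275 genes tested. A fitted effect below 0 in all 4 blocks was seen for 16 of the 31, where 12.5% of all genes tested had no block above 0 (list median −0.50). Without the 3 libraries that stand apart the list median was −0.31, and the male Ptk6-/- median went from −0.26 to 0.04 (0.06 without male Ptk6-/- succinate 1 alone). *Mgam*, coding the brush border enzyme maltase-glucoamylase, had −0.84 ± 0.19 (edgeR adjusted p = 0.0473), which is lower but under 2-fold. *Lct*, the lactase gene, had −1.12 ± 0.42 and *Vil1*, the villin gene, −0.65 ± 0.19 (edgeR adjusted p = 0.216 and 0.138). The lipid carriers *Apoa4* (0.66 ± 0.20) and *Fabp1* (0.56 ± 0.23) had values above 0 (edgeR adjusted p = 0.144 and 0.250).

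Of 24 interferon-stimulated genes 0 were called, with 12 lower and 2 higher at an unadjusted p under 0.05, beside 1406 lower and 1811 higher of all 20275 genes tested, and a list median of −0.44. *Ifit1* had −1.13 ± 0.26 (edgeR adjusted p = 0.0507). Of 20 lymphoid genes 0 were called, and 7 were lower and 1 higher at an unadjusted p under 0.05, with block medians of −0.03 in male WT, 0.03 in male Ptk6-/-, −0.71 in female WT and −0.89 in female Ptk6-/- mice. Among the 7 was *Gzmb*, the granzyme B gene of cytotoxic cells, with −1.02 ± 0.33 (edgeR adjusted p = 0.162). Of 22 proliferation genes 0 were called and 0 had an unadjusted p under 0.05. All 34 ribosomal protein genes had a fitted effect above 0, with a median of 0.41 and block medians of 0.23 in male WT, 1.19 in male Ptk6-/-, −0.02 in female WT and 0.36 in female Ptk6-/- mice, and 0 were called. The male Ptk6-/- median was 0.38 without male Ptk6-/- succinate 1, whose summed ribosomal protein level was 36570 CPM beside 11220 and 11730 CPM in the other treated mice of its block, and the pooled median was then 0.20. The slope of expression against gene length, both as log2, was −0.199 to 0.265 over the libraries, and with an offset for it 101 genes were called higher, 82 of them among the 83.

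**Figure D5:**
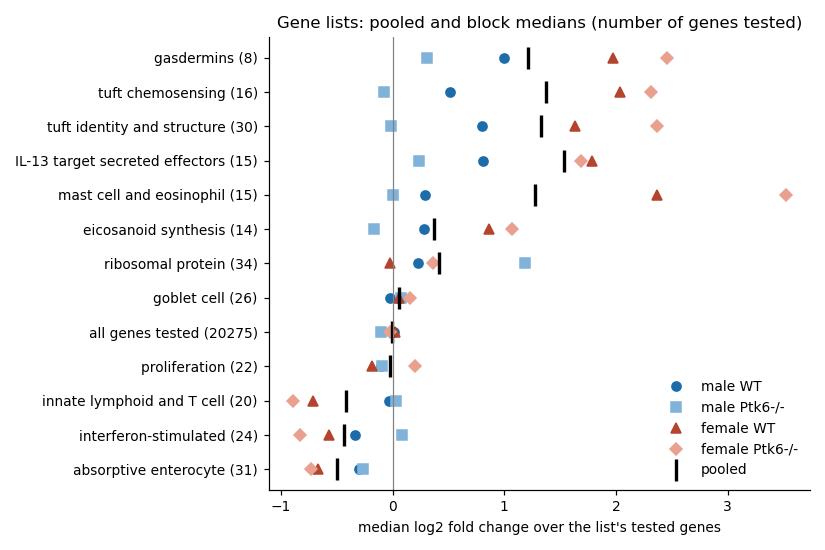
Median log2 fold change of succinate over control (x axis) over the tested genes of 12 gene lists and of all genes tested (y axis, number of genes in parentheses); black bars are the pooled medians and symbols the block medians. Tuft cell, gasdermin and mast cell lists lie above 0 in the female blocks and near 0 in male Ptk6-/- mice, while enterocyte medians lie below 0 in all 4 blocks, of which the male Ptk6-/- one was 0.06 without male Ptk6-/- succinate 1.

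Whether the block effects differ was tested in a fit with 8 groups. Over the 4 blocks at once, edgeR called 0 of 20275 genes (smallest adjusted p 0.133), with 1575 at an unadjusted p under 0.05; DESeq2 called 201 and voom with sample weights 440. Between the genotypes edgeR called 0 (smallest adjusted p 0.864), with 1162 at an unadjusted p under 0.05, where DESeq2 called 8 and voom 4. Between the sexes edgeR called 17 genes (0.0838%), 13 with the larger value in females, and 7 of the 83 were among them. DESeq2 called 211 and voom 169. Male Ptk6-/- mice against the mean of the other 3 blocks gave 9 genes by edgeR (0.0444%), 7 with the smaller value in male Ptk6-/- mice, and 5 of the 83 were among them. Here DESeq2 called 164 and voom 208. Without the 3 libraries that stand apart, edgeR called 0 genes in either of these 2 tests, with 1450 and 879 at an unadjusted p under 0.05 (smallest adjusted p 0.105 and 0.0763). Left out alone, male WT control 1 gave 3 genes between the sexes and 3 in the second test, male Ptk6-/- succinate 1 gave 3 and 0, and the library labelled female WT succinate 2 gave 0 and 2. Over all 24 libraries left out in turn the counts were 0 to 200 and 0 to 20, the highest without female WT succinate 3.

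By edgeR, the smallest p over the 4 blocks and between the sexes was that of *Gsdmc3*, and for male Ptk6-/- mice that of *S100a8*. *Gsdmc3* had block effects of 2.08 in male WT, −0.03 in male Ptk6-/-, 3.48 in female WT and 4.19 in female Ptk6-/- mice, and the female effect exceeded the male one by 2.81 ± 0.43 on the log2 scale (edgeR adjusted p = 0.0262). For *Gsdmc2* the difference was 3.08 ± 0.48 (edgeR adjusted p = 0.0262), and for *Gsdmc4* 2.42 ± 0.43 (edgeR adjusted p = 0.0351). The male Ptk6-/- effect less the mean of the other blocks was −3.28 ± 0.52 for *Gsdmc3* (edgeR adjusted p = 0.0299) and −5.52 ± 1.01 for *Pla2g4c* (edgeR adjusted p = 0.0494). The tuft cell genes *Avil* (2.40 ± 0.40), *Dclk1* (2.15 ± 0.40) and *Pik3r5* (2.01 ± 0.37) had a larger effect in females (edgeR adjusted p = 0.0351 each). Without the 3 libraries the sizes moved little while the calls were lost: *Gsdmc3* had a female minus male difference of 2.78 (edgeR adjusted p = 0.105), *Avil* of 2.19 (edgeR adjusted p = 0.161), and *Pla2g4c* a male Ptk6-/- difference of −5.59 (edgeR adjusted p = 0.388).

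A smaller set moved the other way between blocks. *Reg3g*, coding an antibacterial lectin, held 2641, 5232 and 1839.8 CPM in female WT controls and 149, 59.3 and 429 CPM in treated females of that genotype. In male Ptk6-/- mice it held 1573, 2963 and 3721 CPM and 7123, 3272 and 4317 CPM. The female minus male difference of effects was −4.34 ± 0.79 on the log2 scale (edgeR adjusted p = 0.0351). *Ubd*, a ubiquitin-like gene induced by interferon, had block effects of −1.51 in male WT, 1.97 in male Ptk6-/-, −4.02 in female WT and −4.02 in female Ptk6-/- mice and a female minus male difference of −4.25 ± 0.75 (edgeR adjusted p = 0.0351). *Upp1*, coding uridine phosphorylase, had block effects of −0.65 in male WT, 1.06 in male Ptk6-/-, −1.98 in female WT and −1.88 in female Ptk6-/- mice (female minus male −2.14 ± 0.39, edgeR adjusted p = 0.0351).

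*S100a8*, a neutrophil calprotectin subunit gene, was among the 6 genes with the smallest p in both tests, but it had few counts. It had 5, 147 and 112 counts in male WT controls and 194, 203 and 150 counts in treated male WT mice. In male Ptk6-/- mice it had 168, 234 and 117 counts in controls and 0, 0 and 0 counts with succinate, where 1 of the 3 treated libraries was the shallowest. All 6 female controls were at 0, and treated females had 0, 12 and 9 counts (WT) and 4, 25 and 17 counts (Ptk6-/-). The 12 counts were in the library labelled female WT succinate 2, which went against its label. The male controls were thus higher than the female ones before any treatment. *Pygl*, coding glycogen phosphorylase, had a female minus male difference of 1.97 ± 0.34 (edgeR adjusted p = 0.0351), and *Kctd12*, coding a subunit of GABA-B receptors, one of 1.42 ± 0.26 (edgeR adjusted p = 0.0351).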

How the data were processed

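RNA from the distal jejunum of 24 mice was sequenced as stranded poly(A) libraries. Per the study's methods, the authors trimmed reads with Cutadapt, checked them with FastQC, aligned them with HISAT2 and assembled transcripts with StringTie, with StringTie and ballgown used to estimate expression as FPKM; the submitters' processing notes name the build GRCm39. The deposited table of raw counts per gene was analysed, and the program that counted is not given in the sources used here. FPKM values, deposited by the authors in a second table, served for tissue markers, positions and an alternative test. That table also holds columns of counts made by the authors, which were not used.

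Counts were tested with edgeR 4.0.16 (R 4.3.3; quasi-likelihood, TMM) on treatment with a term for each of 4 blocks, for genes that reached 10 counts in 6 or more libraries, and CPM were computed on TMM-scaled totals. A call needed an adjusted p (Benjamini-Hochberg) below 0.05 and a fold of 2 or more. Differences between blocks were tested in a fit with 8 groups, at an adjusted p under 0.05. In a group the 3 libraries are different mice, and no replicates agreed within counting noise. The same steps were tested on data with known changes. DESeq2 1.42.0, limma 3.58.1 (voom, and log2(FPKM + 1)), other filters and left-out libraries were alternatives. FPKM tests kept genes with a mean of at least 0.5.

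Genes named were those of the lists, up to 15 with the smallest adjusted p in each direction and the 6 with the smallest p in each test of a difference. Genes with a Gm or Rik symbol were left out of these rankings. Others were picked with their values in view. The genes, lists and tests were chosen with earlier results of these data known. Some genes are not reported here. Total counts limit precision most in male Ptk6-/- succinate 1 (8080321 counts).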

Additional observations from a re-analysis of the deposited data

Results flagged for a closer look

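The succinate effect differed between the sexes for 17 genes by edgeR's test of that difference in the fit with 8 groups. The female minus male difference, on the log2 scale, was 3.08 for *Gsdmc2*, 2.81 for *Gsdmc3* and 2.42 for *Gsdmc4* among the gasdermins, and 2.40 for *Avil*, 2.15 for *Dclk1* and 2.01 for *Pik3r5* among tuft cell genes. It was 2.57 for *Capn13*, 2.02 for *Cd55*, 1.97 for *Pygl*, 1.42 for *Kctd12* and 1.27 for *Tnfrsf21*, a death receptor gene. *Pnliprp2*, coding a pancreatic lipase-related protein, had 4.08. The summed level of 4 pancreas genes was 87.9 to 2045 CPM in treated female WT and 247 to 1574 CPM in treated female Ptk6-/- mice. In treated males it was 51.3 to 204 CPM (WT) and 39.8 to 165.5 CPM (Ptk6-/-). In the treated females nearly all of this sum was the colipase gene *Clps*, which is also in the Paneth cell list. The pancreas genes *Prss2*, *Cpa1* and *Ctrb1* had at most 3, 4 and 15 counts in any library. The part of pancreas tissue in the value of *Pnliprp2* was not tested. The 4 genes with a lower effect in females were *Reg3b* (−4.38), *Reg3g* (−4.34), *Ubd* (−4.25) and *Upp1* (−2.14).

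The effect in male Ptk6-/- mice differed from the mean of the other 3 blocks for 9 genes by the same kind of edgeR test. It was lower for *Pla2g4c* (−5.52), *Kcnj16*, a potassium channel gene (−4.55), *Gsdmc3* (−3.28), *Gsdmc2* (−3.19), *Gsdmc4* (−2.82) and *Kctd12* (−1.73), and higher for *Ubd* (5.15) and *Upp1* (2.57). The fitted differences of *S100a8*, 10.96 between the sexes and −14.82 for male Ptk6-/- mice, rest on groups at 0 counts and are no measured size. Both tests called 0 genes without the 3 libraries that stand apart, and the sizes kept their sign. The block of male Ptk6-/- mice holds the shallowest library.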

How the results depend on the processing

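The pooled direction held for the 83 genes wherever they were tested, over every alternative run, and the number called did not. The genes were chosen on that direction in the same data, so its hold is a description and not a test. Genes higher, then lower, numbered 83 and 1 with DESeq2's size factors, 82 and 1 without *Rn18s-rs5*, and 69 and 1 without the 3 libraries that stand apart. They were 222 and 46 with DESeq2 (77 of the 83), 244 and 183 with voom and sample weights (71 of the 83), 144 and 26 as the mean of the blocks (79 of the 83), 109 and 4 with no filter, 56 and 3 with at least 10 counts in every library, 97 and 3 with no fold threshold, and 101 and 3 with a length offset. Limma gave 24 and 0 on log2(FPKM + 1), 24 and 0 on log2(FPKM + 0.1), and 2 and 0 with no filter. Without the block of male WT mice they were 8 and 0, without male Ptk6-/- mice 147 and 45, and without female WT or female Ptk6-/- mice 0 and 0. Leaving out 1 library gave 36 to 165 and 1 to 39.

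For the differences over 4 blocks, between sexes, between genotypes and of male Ptk6-/- mice, in that order, DESeq2 called 201, 211, 8 and 164 genes, voom 440, 169, 4 and 208, and edgeR without a filter 4, 29, 0 and 15. Limma called 2, 23, 0 and 18 on log2(FPKM + 1), 5, 2, 0 and 20 on log2(FPKM + 0.1), and 10, 3, 1 and 10 with no filter. Leaving out 1 library gave 0 to 50, 0 to 200, 0 to 0 and 0 to 20; the highest counts came without female WT succinate 3. Without the 3 libraries all 4 were 0. Without a whole block, the differences between sexes, between genotypes and of male Ptk6-/- mice were not run. The edgeR test of a difference among the 3 remaining blocks then called 0 genes, with 1186 to 1743 at an unadjusted p under 0.05 (smallest adjusted p 0.0584 to 0.782).

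The replicate numbers showed no sign of pairing the mice. Over 12 pairs of a control and a succinate library the correlation of same-numbered deviations was −0.356 to 0.0986. With so few pairs per block this cannot exclude a pairing, and the labels do not state one. With a replicate block 9 genes were higher and 0 lower, with the length offset and the replicate block 15 and 0, and both fits called 0 genes in the tests of differences. The cause of these shifts was not tested. Depth and the number of mice limit genes near 0 counts.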
